A study of Mus musculus with 2 samples.

Results

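Small nucleolar RNA (snoRNA) host genes are long noncoding RNA genes whose introns encode snoRNAs. The 10 genes described here are Gas5, Zfas1, Snhg1, Snhg3, Snhg5, Snhg6, Snhg8, Snhg12, Snhg15 and Snhg20, taken by gene symbol from 55536 annotated genes. They carry 88 annotated transcripts, and all 10 symbols were found in every table. The samples are 2 replicate libraries of bone marrow-derived macrophages (BMDM) of the mouse strain C57BL/6J, labelled as a cytosolic fraction. The cells had been given 100 ng/ml lipid A, the part of lipopolysaccharide that activates Toll-like receptor signalling, for 12 h, were washed and left for 12 h, and received 100 ng/ml lipid A again for 75 min. Both libraries are total RNA depleted of ribosomal RNA, from 1 µg of input. The labels give them separate biosamples and the same donor record, with age and sex not collected, so the spread between the libraries may be partly technical. With 1 group there is no untreated reference, and the comparisons below are between genes, between transcripts and between the 2 replicates.

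A host gene is transcribed and spliced like a messenger RNA. The intron that is released is trimmed to a snoRNA, which joins a protein complex and guides chemical modification or processing of ribosomal RNA. Box C/D snoRNAs guide 2′-O-methylation, box H/ACA snoRNAs guide pseudouridylation, and the related scaRNAs act in Cajal bodies on spliceosomal RNAs. The spliced exons leave for the cytoplasm, and several of these spliced RNAs, Gas5 among them, are known substrates of nonsense-mediated decay. Host genes for snoRNAs, coding and noncoding, often start transcription within a run of pyrimidines, the terminal oligopyrimidine motif of ribosomal protein messenger RNAs.

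The 10 hosts contained 34 annotated snoRNA or scaRNA genes on the same strand, each lying inside an intron of at least 1 host transcript. Gas5 held 10 of them and Snhg1 held 8. Overlapping entries under the same name, Snord80 in Gas5 and Snora16a in Snhg12, were counted as the annotation gives them. The sequences below are those of the hosts that the results turn on, from GENCODE M21 transcripts on mm10, written 5′ to 3′. Capitals mark an exact TGATGA (box C) within the first 20 bases together with an exact CTGA (box D) within the last 20, or an ACA that stands 3 bases before the 3′ end or a base to either side of that.
Gm26224 in Gas5: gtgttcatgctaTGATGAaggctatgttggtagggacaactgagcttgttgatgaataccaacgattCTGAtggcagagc
Gm25878 in Zfas1: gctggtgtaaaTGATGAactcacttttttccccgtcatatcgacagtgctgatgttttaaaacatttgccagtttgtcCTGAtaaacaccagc
Snord87 in Snhg6: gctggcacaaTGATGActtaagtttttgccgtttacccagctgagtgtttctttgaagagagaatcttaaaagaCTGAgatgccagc
Snora73b in Snhg3: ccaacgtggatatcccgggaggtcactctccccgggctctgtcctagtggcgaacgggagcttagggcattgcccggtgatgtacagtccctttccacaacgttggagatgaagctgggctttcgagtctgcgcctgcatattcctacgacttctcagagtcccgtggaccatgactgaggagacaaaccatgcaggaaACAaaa
Snora73a in Snhg3: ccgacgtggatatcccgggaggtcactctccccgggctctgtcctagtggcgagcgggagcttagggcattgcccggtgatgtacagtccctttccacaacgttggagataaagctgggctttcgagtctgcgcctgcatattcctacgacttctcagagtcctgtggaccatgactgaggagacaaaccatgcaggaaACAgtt
Gm26083 in Snhg20: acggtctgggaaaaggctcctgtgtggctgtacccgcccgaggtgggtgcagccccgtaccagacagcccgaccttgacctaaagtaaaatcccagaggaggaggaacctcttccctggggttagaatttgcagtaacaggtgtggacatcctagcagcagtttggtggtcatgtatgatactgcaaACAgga
Snord22 in Snhg1: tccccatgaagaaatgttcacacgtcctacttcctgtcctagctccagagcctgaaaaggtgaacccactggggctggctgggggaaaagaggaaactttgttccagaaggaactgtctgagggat

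The first 3 are box C/D RNAs from the hosts with the highest levels. Their positions are chr1:161035394-161035473 on the plus strand for Gm26224, chr2:167063473-167063565 on the plus strand for Gm25878 and chr1:9942463-9942549 on the minus strand for Snord87. The other 4 are the snoRNA or scaRNA genes inside these hosts that had counts, and the values are given further on. They lie at chr4:132352322-132352526 and chr4:132352775-132352979 on the minus strand (Snora73b and Snora73a), chr11:117077243-117077435 on the plus strand (Gm26083) and chr19:8725866-8725991 on the plus strand (Snord22). Of the 34 genes, 20 had both exact boxes C and D, 8 had the ACA and 6, Snord22 among them, had neither spelling. Over all 1558 snoRNA and scaRNA genes of the annotation, 20.2% had boxes C and D by this search and 43.8% had the ACA.

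Levels are given as TPM, a transcript abundance corrected for length and library size, which can be set side by side between genes. Of the 10 hosts, 9 reached 1 TPM in both libraries, the limit used here for a detected gene. In these bulk samples, fewer cells with a transcript and less of it per cell cannot be told apart. Gas5, a growth arrest-specific gene that hosts box C/D snoRNAs, was the highest. It had 53.1 TPM in replicate 1 and 31.4 TPM in replicate 2 (42.3 ± 15.3, SD, n = 2). Zfas1, which begins beside the Znfx1 gene and hosts Snord12 and 2 further snoRNA genes, had 41.2 and 25.3 TPM in replicates 1 and 2 (33.3 ± 11.3, SD, n = 2). Snhg6, the host of Snord87, had 27.8 and 18.5 TPM (23.2 ± 6.58, SD, n = 2). All 3 were higher in replicate 1, and together they made up 77.8% of the summed TPM of the hosts in replicate 1 and 74.2% in replicate 2.

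A middle group followed. Snhg8, the host of Snora24, had 10.7 TPM in replicate 1 and 8.57 TPM in replicate 2. Snhg12, which hosts Snora16a, Snora44, Snora61 and Snord99, had 9.29 and 4.65 TPM. Snhg15, the host of Snora9, had 5.55 and 3.71 TPM. Snhg12 had the widest spread of the 3, with its 2 values 2.00-fold apart. Snhg3, whose Snora73 RNAs take part in small-subunit ribosomal RNA processing, had 3.94 and 3.74 TPM. Snhg1, the host of Snord22 and of a run of box C/D genes, had 3.25 and 2.98 TPM. These 2 genes had close values in both libraries.

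Snhg5, which hosts Snord50a and Snord50b, had 1.81 TPM in replicate 1 and 1.67 TPM in replicate 2. Snhg20, whose intron holds a scaRNA, had 0.34 and 0.77 TPM and was the member that did not reach 1 TPM. It was also the only host with a lower TPM in replicate 1 than in replicate 2. The order was the same in both libraries apart from Snhg15 and Snhg3, which changed places. Of the 9 neighbouring pairs in the order, 5 had replicate ranges that overlapped: Gas5 and Zfas1, Zfas1 and Snhg6, Snhg8 and Snhg12, Snhg12 and Snhg15, and Snhg15 and Snhg3. In the other 4 pairs, Snhg6 and Snhg8, Snhg3 and Snhg1, Snhg1 and Snhg5, and Snhg5 and Snhg20, the ranges did not overlap. With 2 values a gene there is no test of these differences.

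**Figure D1:**
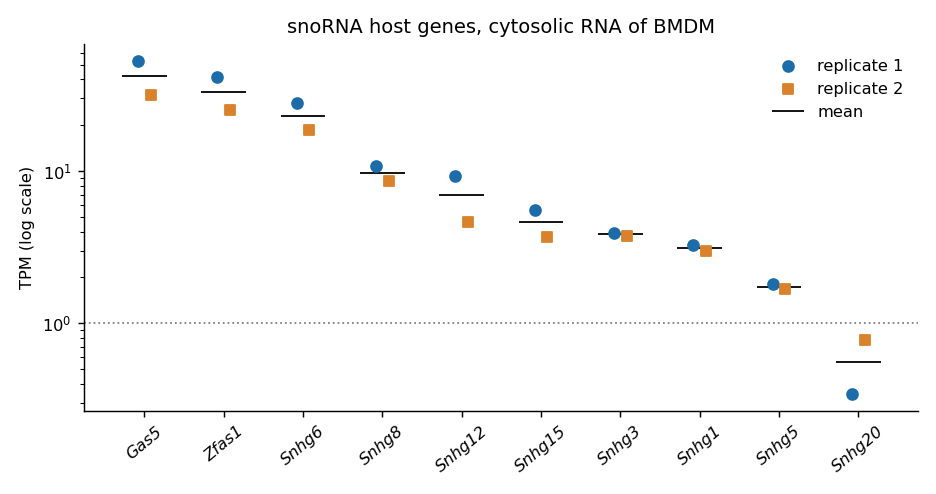
TPM (log axis) of the 10 snoRNA host genes in replicate 1 (circles) and replicate 2 (squares), with the mean as a line and 1 TPM as a dotted line. Gas5 lies at 53.1 and 31.4 TPM, Snhg20 at 0.34 and 0.77 TPM, below the dotted line in both libraries.

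The counts behind these levels ranged widely. Gas5 had an expected count of 1790 in replicate 1 (95% Poisson interval 1708 to 1875) and 860 in replicate 2 (803 to 919). Zfas1 had 2396 and 1229, more than Gas5, because its transcripts are longer and TPM divides by length. Snhg20 had 15 in replicate 1 (8.40 to 24.7) and 38 in replicate 2 (26.9 to 52.2). The intervals cover counting error only. The libraries held 64187219 counts over annotated genes in replicate 1 and 49429864 in replicate 2. All 8 macrophage markers were detected, from Itgam at 24.4 and 37.2 TPM to Lyz2 at 2912 and 3115 TPM. None of 14 markers of T cells, B cells, neutrophils, erythroid, endothelial or stromal cells reached 1 TPM.

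The hosts lie on 7 chromosomes of mm10. Gas5 (ENSMUSG00000053332.13) spans chr1:161034422-161038539 and Zfas1 (ENSMUSG00000074578.13) spans chr2:167062934-167065862, both on the plus strand. Snhg6 (ENSMUSG00000098234.7) spans chr1:9941959-9944118, Snhg8 (ENSMUSG00000104960.1) chr3:123507552-123508404, Snhg15 (ENSMUSG00000085156.7) chr11:6525591-6528760, Snhg3 (ENSMUSG00000085241.7) chr4:132348014-132353686 and Snhg5 (ENSMUSG00000097195.9) chr9:88521050-88522929, all on the minus strand. Snhg12 (ENSMUSG00000086290.9) spans chr4:132308623-132311024, Snhg1 (ENSMUSG00000108414.1) chr19:8723475-8726443 and Snhg20 (ENSMUSG00000086859.4) chr11:117076008-117078955, on the plus strand. Zfas1 shares 82 exonic bases with Znfx1 on the opposite strand, all of them within its leading transcript of 738 bases. That transcript also shares 189 bases with the miscellaneous RNA gene Gm27494 on the same strand, which was listed at 0 in both libraries. Znfx1 stood at 109 and 136 TPM, above Zfas1. Snhg3 shares 28 bases of its leading transcript with Rcc1 on the same strand, which had 1.58 and 1.88 TPM, and 347 with the lincRNA gene Gm17300 on the opposite strand, which had 0.12 and 0.16 TPM. Snhg6 shares 127 bases with Mcmdc2 on the opposite strand (0.02 TPM in each library). Whether the counting used strand is not given in the sources used here, so reads in the shared stretches cannot be told apart by gene. Gas5 lies inside the span of Zbtb37 on the opposite strand with no shared exonic base.

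The leading transcript, that with the highest mean share of its gene's TPM, held no whole snoRNA gene inside an exon in any of the 10 genes. Each leading transcript was a spliced form. In Snhg20 it rested on expected counts of 7.79 and 22.8 in replicates 1 and 2, against 4.65 and 13.8 for Snhg20-203, which has 1 exon. These leading transcripts were 437 to 1004 bases long. Their median share was 85.0 ± 2.89% (SD, n = 2). In 3 hosts the share was above 90% in both libraries. Zfas1-205, with 5 exons, took 98.1% in replicate 1 and 96.3% in replicate 2. Snhg12-206, also of 5 exons, took 98.6% and 94.5%. Snhg8-201, of 3 exons, took 96.5% and 95.2%. Snhg3-204 was close behind at 89.9% and 89.5%.

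Other hosts divided their output between 2 spliced forms. Gas5-224, of 12 exons and 502 bases, took 69.0% in replicate 1 and 75.0% in replicate 2, and Gas5-210, of 11 exons and 557 bases, took 28.1% and 19.1%. Snhg6-203 took 84.1% and 78.6%, and Snhg6-204 took 15.7% and 20.5%. Snhg15-204 took 53.6% and 56.3%, and Snhg15-201 took 45.2% and 39.97%. These 3 genes kept the same leading form in both libraries. In Snhg5 the order changed, with Snhg5-201 at 60.7% and 40.3% and Snhg5-202 at 37.7% and 55.3% in replicates 1 and 2. Snhg20-202 took 53.6% and 87.2%, and Snhg20-207 took 40.2% in replicate 1 and was listed at 0 in replicate 2. Snhg20-207 rested on an expected count of 2.64.

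Snhg1 was the host whose transcript shares depended most on the table. In the table made from alignments, Snhg1-211 took 93.2% in replicate 1 and 77.0% in replicate 2, and Snhg1-207 took 2.10% and 5.56%. In the table made directly from reads, Snhg1-211 took 61.3% and 44.2%, and Snhg1-207 took 36.7% and 39.6%. The gene's estimated count differed far less between the tables, at 183 and 155 from reads against 149 and 127 from alignments in replicates 1 and 2. The division of Snhg1 between these 2 forms therefore differed between the tables more than its sum.

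**Figure D2:**
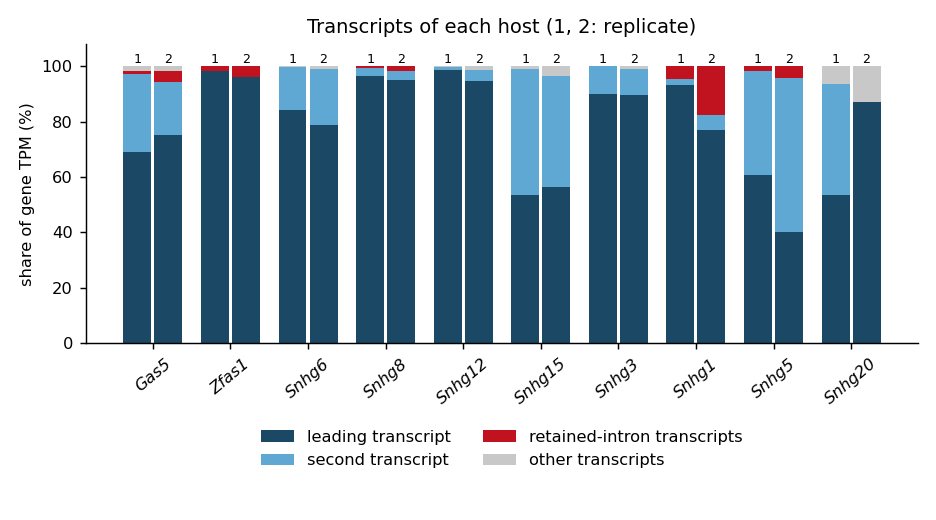
Share of each gene's TPM (%) by transcript for replicate 1 (left bar) and replicate 2 (right bar) of each host, split into the leading transcript, the second transcript, all retained-intron transcripts and all others. Zfas1, Snhg12 and Snhg8 consist almost wholly of the leading transcript, and Snhg1 has a retained-intron share of 4.65% in replicate 1 and 17.4% in replicate 2.

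Transcripts annotated as retained introns made up a small share of TPM in most hosts. Of the 88 transcripts, 42 are annotated as retained introns, and they belong to 5 of the hosts: Gas5, Zfas1, Snhg8, Snhg1 and Snhg5. Their summed share in Gas5 was 1.24% in replicate 1 and 4.15% in replicate 2. In Zfas1 it was 1.91% and 3.74%, in Snhg8 0.65% and 1.77%, and in Snhg5 1.69% and 4.35%. Snhg1 had the highest share, 4.65% and 17.4%. All 5 shares were lower in replicate 1 than in replicate 2, in the read-based table as well. The expected counts behind them were 43.0 and 73.4 for Gas5, 48.4 and 88.9 for Zfas1 and 14.6 and 40.3 for Snhg1, but 4.36 and 7.63 for Snhg8 and 3.44 and 5.06 for Snhg5. Those of Snhg1 were 9.76% and 31.7% of its expected counts in replicates 1 and 2. In the other hosts with the class the share of counts was at most 8.53% (Gas5, replicate 2). Over all 10 hosts the median share of TPM was 0.605 ± 0.396% (SD, n = 2). This counts the other 5 hosts at 0, since they have no transcript of this class in the annotation. Among the 5 hosts with the class, the middle value was 1.69% in replicate 1 (Snhg5) and 4.15% in replicate 2 (Gas5).

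The same direction was common in the whole table. Of 5611 detected genes with retained-intron and other transcripts, 59.4% had a lower retained-intron share in replicate 1 than in replicate 2 and 30.1% a higher one. The median share over those genes was 0.71% in replicate 1 and 1.10% in replicate 2. All of those genes have retained-intron transcripts in the annotation, unlike the hosts as a whole. Malat1, an RNA known to stay in the nucleus, stood at 132 TPM in replicate 1 and 384 TPM in replicate 2, and Neat1, the scaffold of nuclear paraspeckles, at 7.96 and 29.7 TPM. Of the other nuclear RNAs listed, Xist had 1.62 and 1.27 TPM, Kcnq1ot1 had 0.01 TPM in each library and Meg3 was listed at 0. The part of nuclear RNA in the retained-intron shares was not tested.

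Transcripts with a whole snoRNA gene inside an exon, a class chosen after its values were seen, overlapped largely with the retained-intron class. There were 44 such transcripts in 8 hosts, and 33 of the 44 are themselves annotated as retained introns. The values of Gas5, Zfas1, Snhg8, Snhg1 and Snhg5 in this class are therefore a part of those above and not separate from them. In Snhg1 the share was 1.97% in replicate 1 and 7.31% in replicate 2. The other 11 transcripts belong to Snhg12, Snhg15 and Snhg20. Snhg12 had 1.37% and 5.46%, Snhg20 had 6.27% and 10.1%, and Snhg15 had 1.21% and 0.75%, so that 2 of these 3 hosts had a lower share in replicate 1. No annotated transcript of Snhg3 or Snhg6 holds a snoRNA in an exon.

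**Figure D3:**
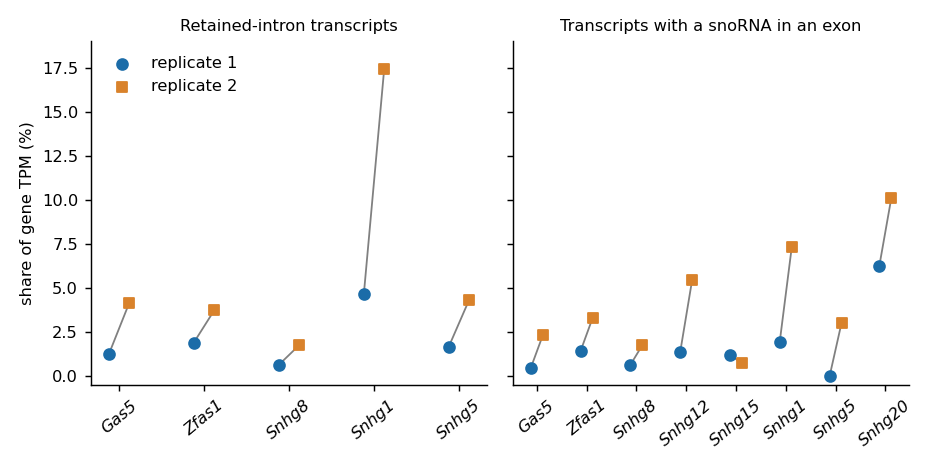
Share of gene TPM (%) in retained-intron transcripts (left, 5 hosts) and in transcripts with a snoRNA gene in an exon (right, 8 hosts), for replicate 1 (circles) and replicate 2 (squares), with a line joining each host's values. Every line in the left panel goes up towards replicate 2, and in the right panel only that of Snhg15 goes down.

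The snoRNAs themselves were almost unmeasured in these libraries. Of the 34 snoRNA and scaRNA genes inside the hosts, 30 were listed at 0 in both libraries. Their annotated lengths run from 60 to 205 bases with a median of 80.5, whereas the labels give a library size range of 250 to 400 with no unit. The quantification set the effective length of 25 of the 34 genes to 0, at which no TPM can be assigned. All 10 snoRNA genes in Gas5, including Gm26224 printed above, were among those listed at 0. A value of 0 under these conditions gives no level for the RNA. Over the whole annotation, 26 of 1558 snoRNA and scaRNA genes reached an expected count of 1 in both libraries.

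The 4 exceptions include the longest of the set. Snora73b and Snora73a, each 205 bases long and both in introns of Snhg3, had expected counts of 24.6 and 32.6 and of 19.6 and 13.7 in replicates 1 and 2. Their printed sequences are identical at 198 of 205 aligned bases without a gap, so the division of reads between them is uncertain. Their host Snhg3 had 95.8 and 72.3. The scaRNA gene Gm26083 in Snhg20, 193 bases long, had counts of 4.93 and 27.8. Snord22 in Snhg1, 126 bases long, had 3 in replicate 1 and 28.99 in replicate 2, and its effective length was 0, so its TPM was listed at 0. Gm26083 and Snord22 were both lower in replicate 1, as were the intron-containing forms of their hosts. In Snhg20 this was not particular to that form, since the spliced Snhg20-202 had expected counts of 7.79 and 22.8 in replicates 1 and 2. The spliced Snhg1-211 had 131 and 79.4. Gm26083 and Snord22 each lie whole inside an exon of at least 1 transcript of their host. How reads were divided between them and those host forms is uncertain, so their counts may not be separate from those of the host forms. Of the 4 genes, Snora73a alone had a higher count in replicate 1.

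**Figure D4:**
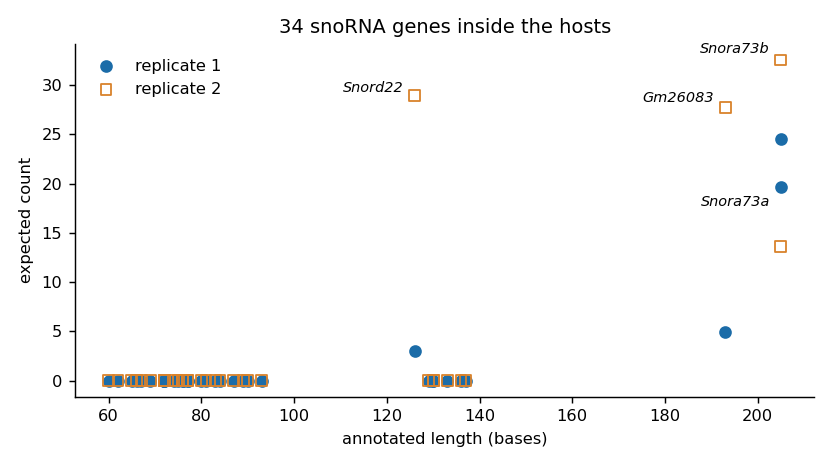
Expected count of the 34 snoRNA and scaRNA genes inside the hosts against their annotated length in bases, for replicate 1 (filled circles) and replicate 2 (open squares). Only Snord22, Gm26083, Snora73b and Snora73a lie above 0, and the genes under 100 bases all lie at 0.

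Of 175 detected long noncoding RNA genes, Gas5 ranked 10 by mean TPM, Zfas1 15, Snhg6 22, Snhg8 41 and Snhg12 51. Snhg15 ranked 67, Snhg3 77, Snhg1 91 and Snhg5 131. The class was set by the annotated gene type alone. It includes entries that carry the names of protein-coding genes, such as Ifi30 and Cct6a, and also Rmrp, so the ranks and medians depend on that annotation. The median of the 10 hosts was 7.42 TPM in replicate 1 and 4.20 TPM in replicate 2, against 3.005 and 2.905 TPM for the other 166 detected long noncoding RNA genes. As medians of log2(TPM + 0.1), the hosts were higher by 0.87 ± 0.51 (SD, n = 2). Against all long noncoding RNA genes, detected or not, the difference was 5.80 ± 0.54. On CPM (counts scaled to library size, without length) the difference had the opposite sign, −0.54. The lengths of the hosts and of the other genes were not compared. Outside the 10, genes named Snhg plus a number, Dancr and Epb41l4aos were looked up. Of these only Epb41l4aos reached 1 TPM in both libraries, at 9.76 and 3.94 TPM, and it is among the 166 other genes above. Noncoding snoRNA hosts under other names are not listed here, and the 166 may include some. Snhg17 had 0.55 and 0.57 TPM, Snhg10 had 0.71 and 0.22 TPM, and Dancr, Snhg14, Snhg11, Snhg9 and Snhg18 were at or below 0.06 TPM.

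Protein-coding genes also host snoRNAs. Of 277 such genes, 200 were detected. Their median was 10.6 TPM in replicate 1 and 10.7 TPM in replicate 2, and the median log2 difference of the 10 noncoding hosts from them was −0.95 ± 0.55 (SD, n = 2). This sets all 10 noncoding hosts against detected coding hosts only, and against all 277 coding hosts the difference was −0.04 ± 0.44. The 3 highest were Tpt1 at 832 and 436 TPM, the chaperone gene Hspa8 at 424 and 436 TPM, and the ribosomal protein gene Rps12 at 479 and 265 TPM. Against a list of 32 coding genes, mostly of ribosomal proteins and translation factors, of which 31 have an intronic snoRNA in this annotation (Npm1 does not), the median log2 difference was −4.66 ± 0.19 (SD, n = 2).

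Of 18 genes for proteins that build or assemble snoRNPs, the snoRNA-protein complexes, 17 were detected, with a median of 4.07 TPM in replicate 1 and 3.90 TPM in replicate 2. The highest were Snu13, which binds the box C/D fold, at 16.0 and 12.5 TPM and Nhp2, of the H/ACA complex, at 15.6 and 11.0 TPM. Shq1, an assembly factor for Dkc1, was the one below the limit, at 0.57 and 0.70 TPM. All 10 genes of nonsense-mediated decay were detected, with a median of 5.60 and 5.51 TPM. The kinase gene Smg1 had 7.74 and 11.2 TPM, and Upf3b was lowest at 1.93 and 1.59 TPM. All 5 exon junction complex genes were detected, from Eif4a3 at 27.3 and 27.6 TPM and Magoh at 21.2 and 16.5 TPM to Magohb at 5.78 and 5.94 TPM.

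TPM was higher in replicate 1 for 9 of the 10 hosts, and for 68.2% of all detected genes and 69.3% of the other detected long noncoding RNA genes. That count was 8 with counts scaled by TMM (the trimmed mean of M-values of edgeR) and 6 with TPM rescaled to protein-coding genes. The median log2 ratio of (TPM + 1), replicate 1 over replicate 2, was 0.38 for the hosts and 0.12 over 9302 detected genes. After rescaling to protein-coding genes these medians were 0.25 and −0.05, and in the read-based table they were 0.76 and 0.40. Gas5 (log2 ratio of scaled counts 0.68, adjusted p = 2.9e-30 by an exact binomial test), Zfas1 (0.59, 4.8e-31), Snhg6 (0.56, 1.1e-09), Snhg12 (0.87, 3.7e-11) and Snhg15 (0.48, 0.014) were higher in replicate 1. These p-values compare the reads of 2 libraries and carry no spread between cultures. With edgeR's exact test and an assumed coefficient of variation of 0.1, Gas5 (adjusted p = 0.025) and Snhg12 (0.0081) passed the threshold, and Zfas1 (0.064), Snhg6 (0.11) and Snhg15 (0.34) did not. At 0.2 none of the 5 passed, with an adjusted p of 0.80 for Snhg12 and 1 for the other 4.

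That made 5 of the 10 hosts higher in replicate 1 at an adjusted p of 0.05 without a fold limit, against 31.1% of 13298 genes tested. Snhg8 (0.26, adjusted p = 0.098), Snhg5 (0.14, 0.57), Snhg3 (0.04, 0.91) and Snhg1 (−0.15, 0.53) were not past the threshold of the exact binomial test. Snhg1 had a slightly higher TPM but a lower scaled count in replicate 1, because its effective length was estimated at 408 bases there and at 461 bases in replicate 2. With a 2-fold limit, 1 of the 10 hosts was called, against 5.45% of the genes tested. It was Snhg20, lower in replicate 1 (log2 ratio −1.69, adjusted p = 1.1e-04, exact binomial test), a direction called in 2.99% of genes. With edgeR's exact test the adjusted p of Snhg20 was 0.012 when a biological coefficient of variation of 0.1 was assumed and 0.26 when 0.2 was assumed.

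The spread of the hosts was set beside that of ribosomal protein genes, a list chosen after the values were seen whose reads may be divided with pseudogene copies. All 80 detected genes of cytosolic ribosomal proteins had a higher TPM in replicate 1, and 79 of them passed the exact binomial test without a fold limit, against 31.1% of all genes tested. The median log2 ratio was 0.54 for the 30 with a snoRNA in an intron and 0.51 for the 50 without one. Among the other 170 detected protein-coding hosts, the median was 0.05, with 58 higher and 57 lower by the same test. Nonsense-mediated decay genes had a median of −0.10, with 1 of 10 higher and 6 lower. Of the 18 snoRNP genes, 6 were higher and 2 lower. The part of these genes' differences in those of the hosts was not tested.

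**Figure D5:**
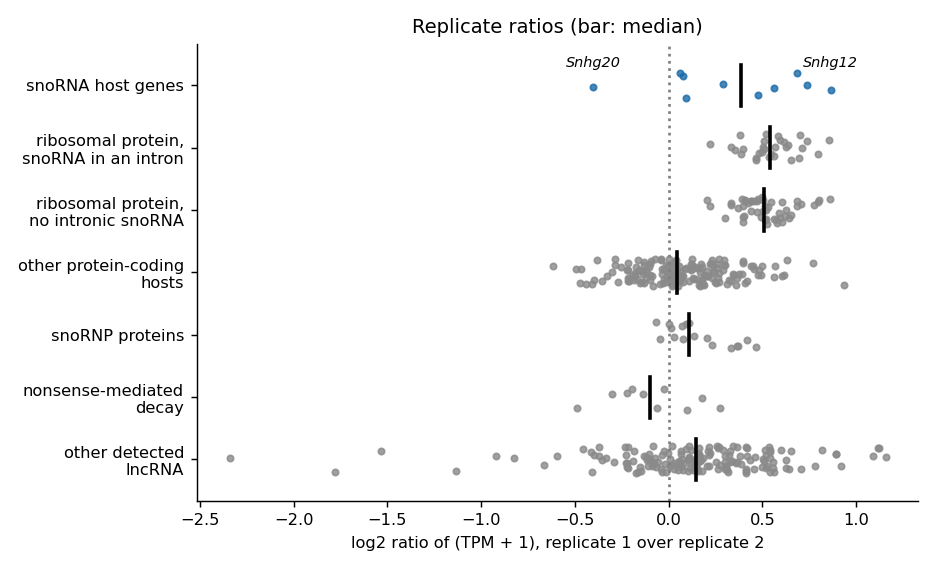
Log2 ratio of (TPM + 1), replicate 1 over replicate 2, for the 10 hosts and for 6 other groups of genes, each point a gene and each bar a median. The hosts spread from Snhg20 at −0.40 to Snhg12 at 0.86, and the ribosomal protein genes lie wholly above 0.

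The start regions of the hosts were read for pyrimidine runs, the feature known from ribosomal protein genes. RefSeq promoters on GRCm38.p6 matched 9 of the 10 hosts, with 2 starts for Gas5. The 5 starts below are those with a run of at least 6 C or T overlapping the stretch from 5 bases before to 10 after the start base, followed by Zfas1 for comparison. Each sequence runs 20 bases before the start base and 20 from it, 5′ to 3′, with the longest such run in capitals. The start base is the letter at position 21.
Gas5, chr1:161035146-161035185, plus strand: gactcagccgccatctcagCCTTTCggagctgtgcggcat
Snhg8, chr3:123508317-123508356, minus strand: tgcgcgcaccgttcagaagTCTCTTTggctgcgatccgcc
Snhg12, chr4:132308658-132308697, plus strand: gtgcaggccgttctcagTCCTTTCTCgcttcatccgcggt
Snhg1, chr19:8723467-8723506, plus strand: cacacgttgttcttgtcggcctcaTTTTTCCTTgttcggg
Snhg5, chr9:88522878-88522917, minus strand: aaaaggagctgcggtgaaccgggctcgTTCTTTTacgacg
Zfas1, chr2:167062914-167062953, plus strand: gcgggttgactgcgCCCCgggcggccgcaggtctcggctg

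A strict terminal oligopyrimidine start, C at the start base followed by at least 4 C or T, was found at 2 of the 10 starts, 1 of Gas5 and that of Snhg8, and at 2.51% of 32851 promoters. Runs of at least 6 were found at 5 of the 10 and at 24.4% of all promoters. Snhg12 and Snhg1 had the longest, of 9 bases each, and they differed in the replicate comparison, with log2 ratios of 0.87 and −0.15. Zfas1, with a log2 ratio of 0.59, had a run of 4. The positions depend on the RefSeq start base, which differed from the annotated start of the leading transcript in several hosts. In Snhg8 the RefSeq start base was chr3:123508336, inside the leading Snhg8-201, which begins at chr3:123508404 on the minus strand. The 2 positions were 8723487 and 8723475 in Snhg1, 161035166 and 161035163 in Gas5, and 88522897 and 88522890 in Snhg5. They were the same in Snhg12 and Zfas1. Either may differ from the start used in these cells.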

How the data were processed

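Total RNA depleted of ribosomal RNA was measured in 2 replicate libraries of 1 group. Per the file headers and the text deposited beside the tables, the authors gave expected counts, TPM and FPKM per gene, and the percent of each gene's TPM per transcript, from a transcriptome alignment on mm10 with GENCODE M21. A second deposited table gives estimated counts and TPM per transcript made from the reads. Which tools made the tables, and whether they used strand, was not given in the sources used here. Deposited TPM is scaled over all features, spike-ins and transfer RNAs included, and protein-coding genes held 29.9% of it in replicate 1 and 26.2% in replicate 2, so a change in other RNAs shifts every level.

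The members and the gene lists were chosen with earlier results of these data known. A gene was called detected at 1 TPM in both libraries. Medians used log2(TPM + 0.1) and replicate ratios used log2(TPM + 1). Expected counts were rounded, scaled by TMM (edgeR 4.0.16, R 4.3.3), filtered at a mean of 10 and compared between replicates by a two-sided exact binomial test with Benjamini-Hochberg adjustment over all genes tested. DESeq2 1.42.0 size factors were an alternative. The test was checked on simulated Poisson counts, which hold no spread between libraries beyond counting error, so that spread was not covered by the check. All members were described, with transcripts of a mean share of at least 10% (at most 3 a gene), every snoRNA gene with a count, related hosts at 1 TPM, the 3 highest protein-coding hosts and, from each list, the 2 highest genes and the lowest, except for a gene that is not reported here. Overlapping genes, the ribosomal protein genes and further related hosts were named after their values were seen.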

Additional observations from a re-analysis of the deposited data

How the results depend on the processing

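With a TPM limit of 5 or 10 in both libraries, 4 and 3 of the hosts were detected in place of 9. The median log2 difference from other long noncoding RNA genes (0.87) was −0.54 on CPM, 5.80 without a limit on low values, and 0.71 to 1.497 with 1 replicate left out. Against lincRNA and processed-transcript genes without other snoRNA hosts, an alternative chosen after seeing the data, this median log2 difference was 0.68. That from protein-coding hosts (−0.95) was −4.16 on CPM, −0.042 without a limit, −4.66 against the 32 named coding genes, an alternative chosen after seeing the data, and −1.28 to −0.49 with 1 replicate left out. CPM omits length, and the cause of the other shifts was not tested. The number of hosts called between replicates (1) was 0 with edgeR at a coefficient of variation of 0.2, 6 without a fold limit, and 7 without it on the read-based table, also chosen afterwards. The median retained-intron share (0.605%) was 1.45% of counts and 1.80% for snoRNA-containing transcripts, and 0.325% to 0.885% with 1 replicate left out. The median leading share (85.0%) was 80.7% in the read-based table and 82.1% of counts. Every host had a lower TPM in the read-based table in both libraries, Gas5 for example 33.5 and 14.3 TPM in replicates 1 and 2. No host had a TPM within 2-fold between the tables in both libraries. With 1 replicate left out the number was 0 to 10, and it was 10 after dividing by the median ratio of detected genes (0.584 in replicate 1 and 0.442 in replicate 2), chosen afterwards. The median replicate ratio (0.38) kept its direction and was 0.76 in the read-based table and 0.25 to 0.44 under the other alternatives. The number of snoRNA genes with counts was 4 under each alternative run. No paired analysis was possible because there is 1 group.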
